A study of Mus musculus with 2 samples.

Results

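The genes of glycolysis and its regulators were read on 2 arrays of mouse intraepithelial lymphocytes (IELs), the T cells that lie between the epithelial cells of the gut. The 34 genes include the enzymes that turn glucose into lactate and those that make or break down the regulator fructose 2,6-bisphosphate. They also include the kinases that gate pyruvate into the mitochondrion, their substrate *Pdha1*, the hypoxia factor *Hif1a* and 3 enzymes of the pentose phosphate branch. A gene was included where the accession of a probe resolved to its symbol, which was so for all 34 genes of 20887 named genes with a probe. They were read by 50 probes, and 9 genes had more than 1 probe.

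RNA came from TCRαβ+CD8αα+ IELs of the small intestine, sorted as TCRγδ-, CD4- and CD8β- cells from C57BL/6 mice of 8 to 12 weeks, with males and females pooled. One genotype was Rbpjf/f (Control) and the other CD4-Cre Rbpjf/f (RFF4), in which Cre recombinase under the *Cd4* promoter deletes the floxed *Rbpj* gene in cells of the T lineage. *Rbpj* encodes the DNA-binding protein through which Notch receptors switch on their target genes. The Control label names no Cre, whereas the study's text describes control *Rbpj*+/+ mice that carry CD4-Cre, so the floxed alleles and the transgene of the Control pool are not settled.

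Each genotype was 1 RNA pool from several isolations on 1 array of 1 color, so that 1 array per genotype sets the precision. There was therefore no replicate spread to test against, and no p-values are given. The arrays shared a slide and a scan. Of 59305 gene spots, 57.2% were well above background on the Control array and 49.7% on the RFF4 array, and the median signal over background was 9.47 and 5.78. *Rbpj* itself did not separate the arrays as labelled. Its level was 2.17 on the Control array and 2.48 on the other, and its other probe was 0.81 higher, both under 0 after the spike-in shift of 1.11 described below, but the files do not say where the probes lie relative to the floxed exons. The Notch targets *Heyl* and *Dtx1* were lower on the array labelled RFF4, with differences of -3.81 and -3.64 on the log2 scale. By real-time PCR the study also found both reduced in *Rbpj*-deficient cells. Every direction below is that of the array labelled RFF4 against the Control array.

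Glycolysis splits glucose into pyruvate in the cytosol and yields a little ATP without oxygen. Lactate dehydrogenase turns pyruvate into lactate and restores the NAD that the pathway consumes, while the pyruvate dehydrogenase complex passes pyruvate on to the citrate cycle. Activated T cells raise glycolysis strongly, and HIF-1, a dimer of the products of *Hif1a* and *Arnt*, switches on many of its genes.

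All levels are log2 signals relative to the array's 75th percentile over gene probes, and all differences are RFF4 minus Control on the log2 scale. A level depends on the probe, so levels were not compared between genes, except to choose which markers of other cells are named and to sum marker lists. Of the 34 genes, 31 passed the background threshold of the scanner software on both arrays (well above background) and 3 (*Hk3*, *Pfkfb2* and *Eno2*) on the Control array alone. A gene that was dim on 1 array received a bound, set against the lowest level well above background there, or no difference where that bound was under 1-fold. This left 32 of the glycolysis genes and 13519 of all genes with a difference. The technical SD of a difference, from probes spotted repeatedly, was 0.14. It was 0.09 for bright probes and 0.33 for probes under a level of -2. These SDs cover the array alone and not the mice.

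**Figure D1:**
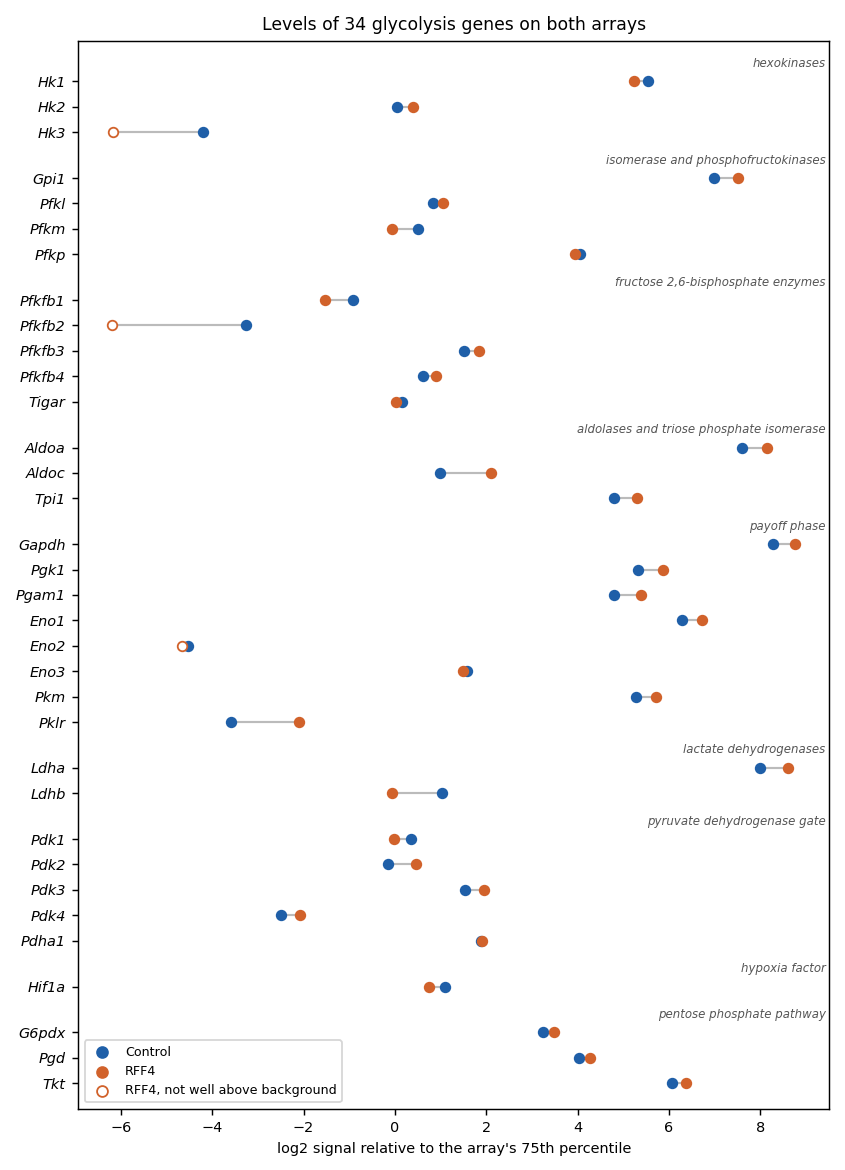
Log2 signal of the 34 glycolysis genes relative to each array's 75th percentile (x axis), by role, with the Control array in blue, the RFF4 array in orange and an open circle where RFF4 was not well above background. *Ldha* sits to the right on RFF4 with this scaling, and to the left when spike-in controls are set equal, whereas *Ldhb* sits to the left in both.

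Most glycolysis genes were slightly higher on the RFF4 array relative to its 75th percentile, and lower when the arrays were aligned on spike-in controls (below 0 for 32 of 34). Of the 32 genes with a difference 22 were higher and 10 lower, so 68.75% were higher beside 48.1% of all genes. Their median difference was 0.33, and the median of all genes was -0.03, a distance of 0.35 that fell to 0.13 with quantile normalization and to 0.06 with no filter and no bound, where the median of all genes was 0.24. Past 2-fold only *Ldhb* was lower, 1 gene beside a background of 5.21% of all genes, and *Aldoc* and *Pklr* were higher, 2 genes beside a background of 12.1%. At a smaller size, 3 technical SDs or 0.41, chosen after the values were seen, 14 genes were higher beside 25.7% of all genes and 4 were lower beside 23.7%. This pooled SD is too large for bright genes and too small for dim ones. Against 3 SDs of its own signal class (0.27 for bright genes and 0.998 for dim ones), a size added later, 17 genes were higher beside 26.3% of all genes and 6 were lower beside 27.9%. The class counts were not repeated under other ways of processing. On the spike-in scale only *Aldoc* (0.02) and *Pklr* (0.40) lay above 0, each within 3 SDs of its class. *Pdk4* and *Pfkfb2*, both dim, passed the pooled size and not that of their class.

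These directions are relative to the bulk of the array. The spike-in controls, RNAs added in fixed amount, were read by 8 probes well above background on both arrays. Setting them equal moved every gene down by 1.11, which left 2 genes higher, *Aldoc* and *Pklr*. Scaling to the median moved every gene down by 0.15 and left 21 of 33 genes with a difference higher. In bulk samples such as these, fewer cells of a type and less RNA per cell cannot be told apart. The cause of the spike-in shift was not tested.

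**Figure D2:**
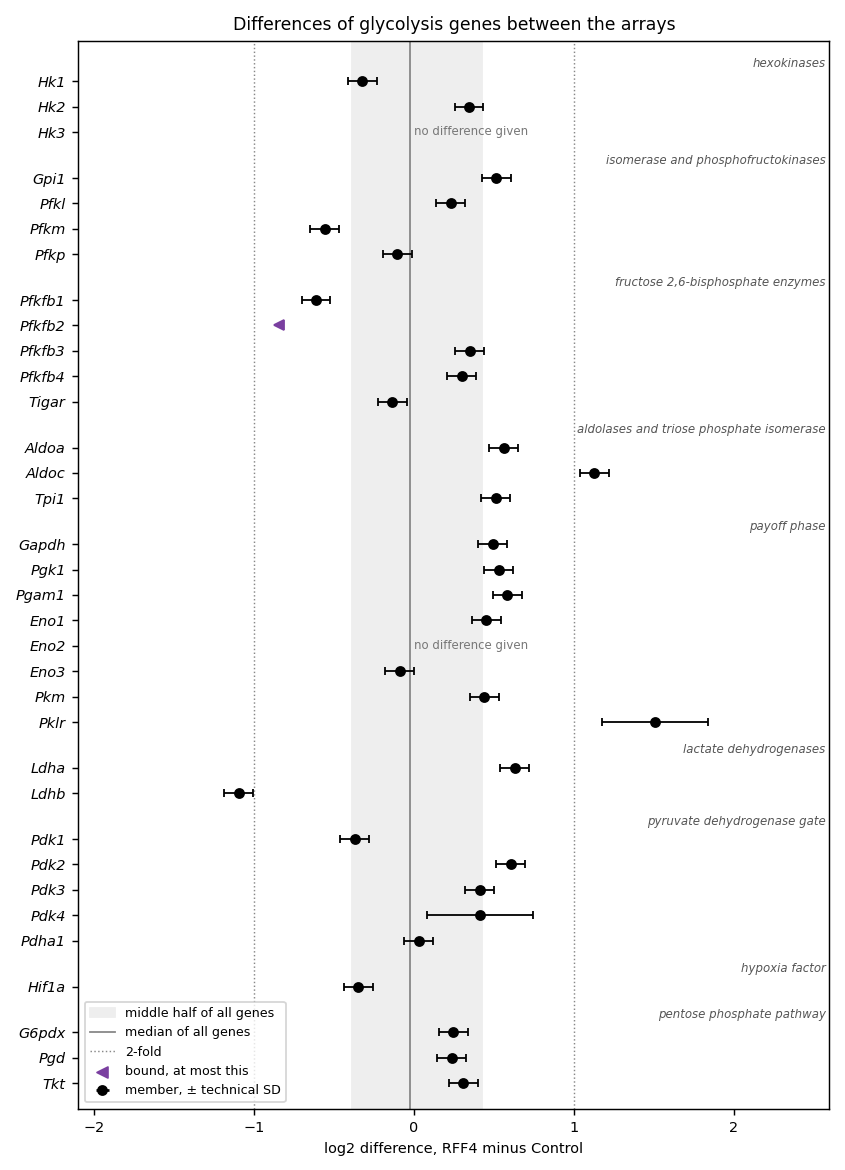
Log2 difference, RFF4 minus Control, of each glycolysis gene (x axis) with the technical SD as bars, the bound of *Pfkfb2* as a triangle, and the median and middle quartiles of all genes in grey. With 75th percentile scaling the points run from *Ldhb* at -1.10 to *Pklr* at 1.51, 22 of them above 0 and 10 under it, and on the spike-in scale only *Aldoc* and *Pklr* lie above 0.

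Glucose is first trapped in the cell as glucose 6-phosphate by the hexokinases, and these differed little. *Hk1*, the housekeeping form, had a level of 5.55 on Control and 5.23 on RFF4, a difference of -0.32, while its other probe differed by -0.13. *Hk2*, the form induced in growing and activated cells, went from 0.06 to 0.40, a difference of 0.34. The hexokinases thus differed in opposite directions, both past 3 SDs of their signal class with this scaling, and both were lower on the spike-in scale (-1.44 and -0.77). *Hk1* was at -0.23 with the mean of all probes and *Hk2* at 0.19 with median scaling, each within 3 SDs of its class. *Hk3*, a form of myeloid cells, had a level of -4.19 on Control and was not well above background on RFF4, with no difference given. *Gpi1*, which converts glucose 6-phosphate to fructose 6-phosphate, went from 6.997 to 7.513 and its 3 probes were higher by 0.52 to 0.55.

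Phosphofructokinase commits the sugar to glycolysis and is built from liver, muscle and platelet subunits. The muscle subunit *Pfkm* had a level of 0.50 on Control and -0.06 on RFF4, a difference of -0.56. This probe was printed on 10 spots, whose SD was 0.04 on Control and 0.08 on RFF4. The liver subunit *Pfkl* differed by 0.23, and the platelet subunit *Pfkp* by -0.10, with 0.06 on its other, dim probe. The subunits did not differ in 1 direction with this scaling, whereas on the spike-in scale all 3 were lower (-0.88 for *Pfkl*, -1.67 for *Pfkm* and -1.22 for *Pfkp*).

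Fructose 2,6-bisphosphate is the strongest activator of phosphofructokinase. It is made and broken down by the bifunctional PFKFB enzymes and broken down by TIGAR, a phosphatase induced by p53. *Pfkfb1*, the liver and muscle form, went from -0.91 to -1.52, a difference of -0.61. *Pfkfb2*, the heart form, had a level of -3.26 on Control and was not well above background on RFF4, at least 1.79-fold lower. The inducible, kinase-dominated *Pfkfb3* went from 1.503 to 1.853, a difference of 0.35, and its other, dim probe differed by 0.67. *Pfkfb4* differed by 0.30 on 1 probe, and its other probe was at background on both arrays. *Tigar* differed by -0.14 and -0.13 on its 2 probes. Among the forms measured on both arrays *Pfkfb1* was lower and *Pfkfb3* and *Pfkfb4* higher, and on the spike-in scale all 3 were lower.

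From aldolase onwards the widely expressed forms were higher on RFF4 with 75th percentile scaling and lower on the spike-in scale, while several tissue forms differed otherwise. Aldolase splits fructose 1,6-bisphosphate, and its ubiquitous form *Aldoa* went from 7.60 on Control to 8.16 on RFF4, a difference of 0.56. *Tpi1*, which interconverts the resulting trioses, went from 4.80 to 5.31, a difference of 0.51, and by 0.59 on its other probe. *Gapdh*, which makes NADH and 1,3-bisphosphoglycerate, went from 8.27 to 8.77. This gene is often used as a reference gene, and its 7 probes were higher by 0.37 to 0.71.

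The next enzymes yield ATP and carry the carbon to pyruvate. *Pgk1*, the first to yield ATP, went from 5.33 to 5.86, a difference of 0.53. *Pgam1*, which moves the phosphate within phosphoglycerate, went from 4.80 to 5.39, a difference of 0.58. *Eno1*, the ubiquitous enolase, went from 6.28 to 6.73, a difference of 0.45. *Pkm*, the pyruvate kinase of most tissues, went from 5.27 to 5.71, a difference of 0.44. With *Ldha* and *Gpi1*, these make 9 forms that were grouped after their values were seen, so that their likeness is a description fixed by the choice. Their differences ran from 0.44 to 0.63, or 1.36-fold to 1.55-fold, with a median of 0.52. *Hk1* and *Pfkp*, at the steps left out of the group, differed by -0.32 and -0.10. All 20 probes of the 9 grouped forms were higher, by 0.37 to 0.71, though not on the spike-in scale.

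The differences of the 9 forms depended on the processing. Of all genes, 24.5% lay above the smallest of the 9 differences. The median of 0.52 became 0.15 with quantile normalization, where *Aldoa* was at 0.00 and *Gapdh* at -0.08. It was 0.27 with cyclic loess, 0.32 with normexp background correction, 0.36 with median scaling and -0.60 on the spike-in scale. In that last setting 0 of the 9 enzymes were higher on RFF4. Their median lay 0.54 above that of all genes with 75th percentile scaling and 0.51 above it on the spike-in scale, but only 0.35 above it under normexp, 0.28 with no filter and no bound, 0.27 under cyclic loess and 0.20 under quantile normalization.

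**Figure D3:**
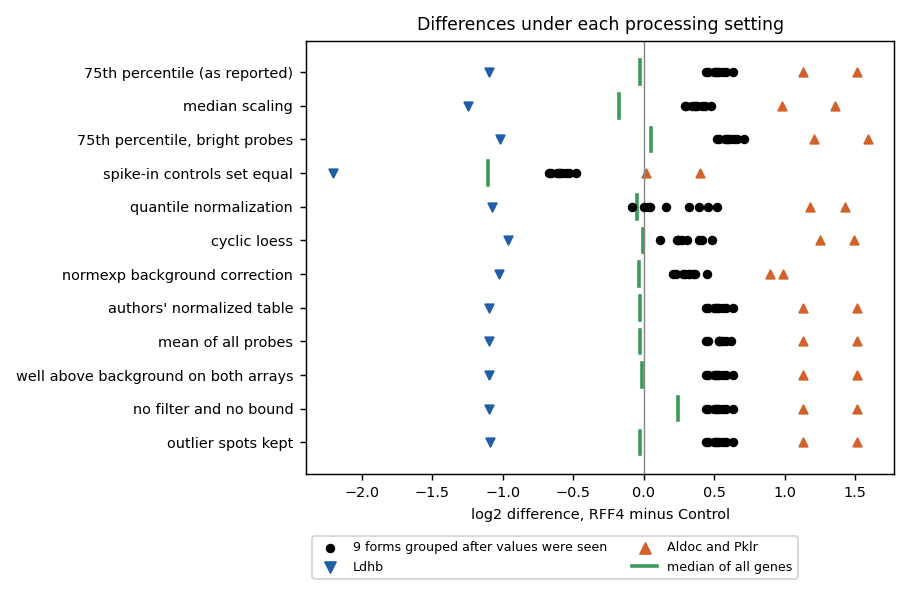
Log2 difference, RFF4 minus Control (x axis), under each way of processing (rows), for the 9 forms grouped after their values were seen (black: *Gpi1*, *Aldoa*, *Tpi1*, *Gapdh*, *Pgk1*, *Pgam1*, *Eno1*, *Pkm* and *Ldha*), *Ldhb* (blue), *Aldoc* and *Pklr* (orange) and the median of all genes (green). These forms spread out with quantile normalization, from -0.08 to 0.52, and all lie under 0 when the spike-in controls are set equal, whereas *Ldhb* lies under 0 throughout.

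Tissue forms at the same steps gave scattered values. *Aldoc*, the brain aldolase, went from 0.99 to 2.12, a difference of 1.13, the largest among the glycolysis genes above a level of -2. *Pklr*, the liver and red cell pyruvate kinase, went from -3.60 to -2.09, a difference of 1.51 with the dim-probe SD of 0.33. *Eno3*, the muscle enolase, differed by -0.09, from 1.57 to 1.49. *Eno2*, the neuronal enolase, had a level of -4.53 on Control and was not well above background on RFF4. So of these tissue forms *Aldoc* and *Pklr* were more than 2-fold higher, though the spike-in controls left their differences at 0.02 and 0.40. *Aldoc* was also within 2-fold with median scaling (0.98) and normexp (0.90), and *Pklr* with normexp (0.98).

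The lactate dehydrogenase subunits differed in opposite directions with 75th percentile scaling, and both were lower on the spike-in scale (-0.48 for *Ldha* and -2.21 for *Ldhb*). *Ldha*, whose subunit favors the making of lactate, went from 7.99 on Control to 8.62 on RFF4, a difference of 0.63. Its 3 probes were higher by 0.57 to 0.65. The difference of *Ldha* was smaller under cyclic loess, 0.27, and near 0 under quantile normalization, 0.03. *Ldhb*, whose subunit prevails in tissues that burn lactate such as the heart, went from 1.02 to -0.07, a difference of -1.10. Of all genes 4.08% lay at or under it, bounds included. Among the glycolysis genes *Pfkfb2*, known only as a bound, may lie lower, since its bound was -1.25 with cyclic loess, where *Ldhb* was at -0.97, and its value without a bound was -2.93. The gap between the subunits was 1.72. It narrowed to 1.47 under normexp, 1.23 under cyclic loess and 1.103 under quantile normalization, and *Ldhb* was read by 1 probe on 1 spot.

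The upstream sequences of 4 of these genes are shown because the factors at issue, HIF-1 and RBPJ, bind short DNA motifs. Each is the 250 bases before a RefSeq start of assembly GRCm38.p6, 5′ to 3′ on the strand of the gene, with capitals marking ACGTG, one form of the HIF core, or GTGGGAA, the RBPJ motif, on either strand. The other form of the HIF core, GCGTG, was not searched and is not marked. *Ldha* lies at chr7:46845554-46845803 on the + strand, *Pgk1* at chrX:106186850-106187099 on the + strand, *Ldhb* at chr6:142507958-142508207 on the - strand and *Aldoc* at chr11:78322823-78323072 on the + strand. *Ldha* and *Aldoc* each have another RefSeq start, whose window held neither ACGTG nor the RBPJ motif and is not shown.
Ldha: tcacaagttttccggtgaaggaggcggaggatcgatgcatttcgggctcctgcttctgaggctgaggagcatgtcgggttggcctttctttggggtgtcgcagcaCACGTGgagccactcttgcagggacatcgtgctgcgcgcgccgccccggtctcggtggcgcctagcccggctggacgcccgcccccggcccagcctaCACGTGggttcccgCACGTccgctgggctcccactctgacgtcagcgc
Pgk1: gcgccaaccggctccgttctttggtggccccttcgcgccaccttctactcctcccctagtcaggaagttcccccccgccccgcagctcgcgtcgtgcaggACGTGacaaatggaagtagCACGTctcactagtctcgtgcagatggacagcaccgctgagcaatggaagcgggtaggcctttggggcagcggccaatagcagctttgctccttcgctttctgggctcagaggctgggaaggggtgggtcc
Ldhb: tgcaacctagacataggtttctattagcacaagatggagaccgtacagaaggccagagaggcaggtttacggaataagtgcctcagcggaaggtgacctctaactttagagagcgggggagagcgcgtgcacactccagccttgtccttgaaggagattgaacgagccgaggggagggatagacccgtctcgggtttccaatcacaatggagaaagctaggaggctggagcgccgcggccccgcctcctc
Aldoc: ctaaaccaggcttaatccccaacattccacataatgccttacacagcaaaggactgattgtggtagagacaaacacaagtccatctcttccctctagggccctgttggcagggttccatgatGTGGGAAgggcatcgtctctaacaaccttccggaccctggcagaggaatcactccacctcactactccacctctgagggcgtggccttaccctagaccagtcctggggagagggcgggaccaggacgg

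The *Ldha* window held ACGTG at 3 separate places and the *Pgk1* window at 2, the *Ldhb* window held neither ACGTG nor the RBPJ motif, and the *Aldoc* window held the RBPJ motif at 1 place. Counting a gene once if any of its start windows held the letters, ACGTG occurred on either strand in 13 of the 34 glycolysis genes (38.2%) and in 18.5% of 27025 genes. The glycolysis genes have more start windows, 1.62 per gene against 1.22, which raises such a count. Per window, the letters were in 17 of 55 (30.9%) and in 16.6% of all 32851, with windows of a gene overlapping in part. Among the 9 grouped forms it was found for 5, namely *Aldoa*, *Pgk1*, *Pgam1*, *Pkm* and *Ldha*. The E-box CACGTG, which contains ACGTG on both strands, occurred in 6 of the glycolysis genes (17.6%) and in 6.86% of all genes, or 10.9% and 6.02% of windows. The RBPJ motif occurred in 3, *Aldoc*, *Pdk4* and *Pdha1* (8.82%), and in 6.18% of all genes, or 5.46% and 5.42% of windows. These differed by 1.13, 0.42 and 0.03. A match to letters is a description and not a bound site.

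The kinases that shut the pyruvate dehydrogenase complex did not move together. *Pdk1*, a target of HIF-1, went from 0.35 to -0.02, a difference of -0.37. *Pdk2* went from -0.14 to 0.46, a difference of 0.60. *Pdk3*, another form that HIF-1 can induce, went from 1.54 to 1.95, a difference of 0.41. *Pdk4*, the form induced by fasting and fatty acids, went from -2.50 to -2.09, a difference of 0.42 that is under 2 times the dim-probe SD. *Pdk1* was thus the only kinase of the 4 that was lower with 75th percentile scaling, while all 4 were lower with the spike-in controls set equal. *Pdha1*, the subunit these kinases phosphorylate, differed by 0.03, from 1.89 to 1.92.

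*Hif1a* was lower under every way of processing. Its level was 1.09 on Control and 0.74 on RFF4, a difference of -0.35, and it ranged from -1.46 to -0.22 over all ways of processing. The 3 pentose phosphate enzymes, which make NADPH and ribose, differed little and alike. *G6pdx*, the entry enzyme, differed by 0.25, *Pgd*, which makes the later NADPH, by 0.24, and *Tkt*, a transketolase that links the branch back to glycolysis, by 0.31, each turning negative with the spike-in controls set equal.

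Other genes around the pathway were read from lists of known members, given here by counts. Of 8 genes of HIF control 6 were lower and 2 higher, with a median of -0.16 that was -0.35 with the mean of all probes and -0.44 under normexp. One of the higher 2, *Epas1*, named after its values were seen, had probes that ran from -1.61 to 0.65. The prolyl hydroxylase *Egln3*, which marks HIF for degradation, was past 2-fold with a difference of 1.86. *Arnt*, the partner of *Hif1a* and named after its value was seen, differed by -0.59. Of 13 HIF targets outside glycolysis 9 were lower and 4 higher, with a median of -0.24. Past 2-fold, the prolyl hydroxylase of collagen *P4ha2* was at -1.85 and the histone demethylase *Kdm3a* at -1.40, whereas the carbonic anhydrase *Car9* was at 1.16. Of 12 nutrient and growth regulators, such as the mTOR and MYC genes, 9 were lower and 3 higher, with a median of -0.23. Past 2-fold were the AMP kinase subunit *Prkaa2*, at 1.24, and the transcription factor *Irf4*, at 1.42. The medians of these 3 lists lay under that of the glycolysis genes, and were -1.27, -1.35 and -1.34 on the spike-in scale, where the shift of 1.11 left none of the higher genes named here past 2-fold.

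On the far side of pyruvate, 16 of 16 citrate cycle genes were higher, by 0.03 to 0.74 with a median of 0.36, and the median was -0.75 with the spike-in controls set equal. The 9 partners of pyruvate dehydrogenase and mitochondrial pyruvate import were 7 lower and 2 higher, with a median of -0.09. Other pentose phosphate enzymes were 4 higher and 1 lower of 5 with a difference, with a median of 0.27 that turned to -0.84 with the spike-in controls set equal.

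Several genes of sugar handling that are typical of gut epithelium or liver had larger differences than the widely expressed forms above. Of 9 other enzymes of glucose breakdown with a difference 7 were higher, and those past 2-fold included *Galm*, a sugar mutarotase (1.38), and *Hkdc1*, a hexokinase-like enzyme (1.35). Of 8 genes of gluconeogenesis and fructose use 7 were higher, with a median of 0.73 and *Fbp2* at 1.37. Of 8 carriers of glucose and lactate 6 were higher, with a median of 0.76. Past 2-fold were *Slc5a1* (1.105), *Slc2a5* (1.33) and *Slc2a2* (1.04), the sodium-glucose, fructose and glucose carriers of enterocytes, and *Slc16a7*, a monocarboxylate carrier (1.97). *Slc2a1*, the glucose carrier of activated T cells, and *Slc16a3*, the lactate exporter, differed by -0.41 and -0.46, and they were named after their values were seen. With the spike-in controls set equal the medians of these 3 lists were -0.90, -0.39 and -0.36.

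Markers of other cells moved along with these values. All 16 epithelial markers were higher, with a median of 1.52, and their summed level went from 7.94 to 9.52. Those named for their signal were *Lgals4* (1.85), *Krt19* (1.70) and *Fabp2* (1.502). All 10 macrophage and dendritic markers with a difference were higher, with a median of 1.497, *C1qa* and *C1qc* as bounds. Their summed level went from 6.28 to 6.77, mostly through *Itgax* (5.73 to 5.92) and *Itgam* (4.53 to 5.44). *Itgax* differed by 0.19, *Csf1r* by 1.44 and *Itgam* by 0.91, but the probes of *Itgam* ran from -0.40 to 0.91. The other markers, *Csf1r* apart, had levels of -2.90 or lower on Control, and *Mrc1* was at background on both arrays. Of 4 B and plasma cell markers with a difference 3 were higher, summed from 4.90 to 6.03, with *Jchain* at 1.66, *Cd79b* at -0.27 and *Ms4a1* at 1.78, and with *Cd79a* and *Pax5* at background on both arrays. All 4 erythroid markers with a difference were higher, by 1.09 to 1.22, the globin genes *Hba-a1*, *Hbb-bt* and *Hbb-bs* among them, and summed from 5.74 to 6.87. The medians of the epithelial, macrophage and erythroid lists kept their sign under every setting, at 0.41, 0.38 and 0.01 on the spike-in scale, and that of the B cell list turned to -0.20.

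Both pools carried the RNA of T cells. All 12 T cell genes passed the background threshold on each array, 7 higher and 5 lower with a median of 0.21 that was -0.23 with quantile normalization and -0.91 on the spike-in scale, and *Cd2*, an adhesion receptor, was past 2-fold at 2.21. *Cd8b1*, whose protein was gated out, was well above background on Control alone, while *Cd4* had levels of 1.878 and 2.001. Of 9 proliferation genes with a difference 9 were higher, with a median of 0.61 that was -0.50 with the spike-in controls set equal. *Mki67*, named after its values were seen, differed by 0.25 on its brightest probe and by -0.01 on the other. By flow cytometry the study reports its protein, Ki-67, to be equivalent between the genotypes in these cells. The part of the other cells, and of cycling, in the differences of the glycolysis genes was not tested.

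**Figure D4:**
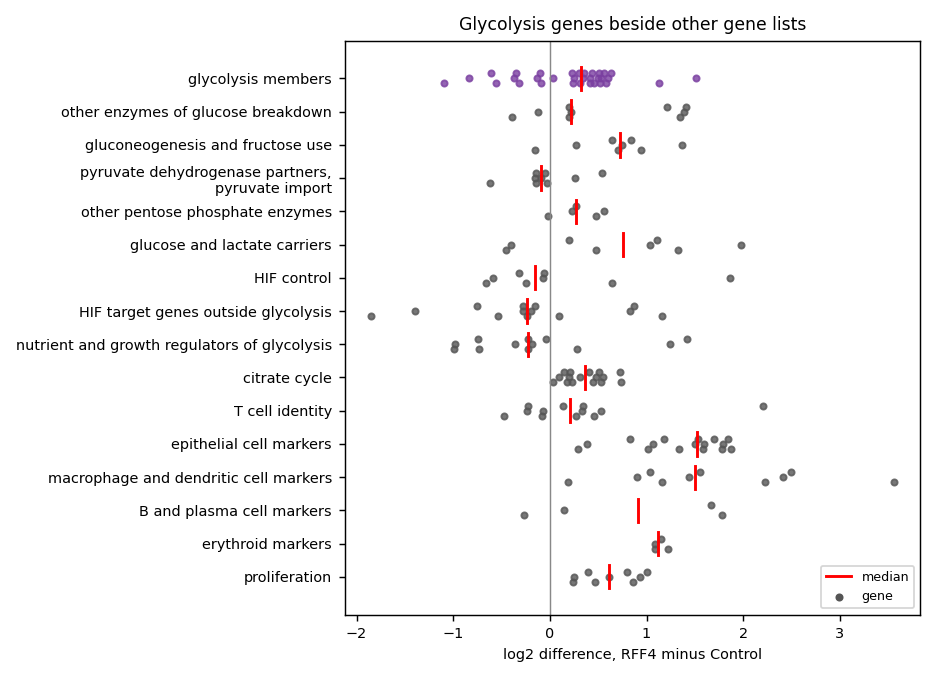
Log2 difference, RFF4 minus Control (x axis), of each gene (points) and the median (red) of the glycolysis genes and of the other lists (rows), with 75th percentile scaling. The median of the glycolysis genes is 0.33, close to the 0.36 of the citrate cycle genes, and those of the epithelial and macrophage markers are 1.52 and 1.497. On the spike-in scale the first 2 medians are under 0 and those of the markers above it.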

How the data were processed

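RNA of sorted IELs was measured on 2 arrays of 1 color (SurePrint G3 Mouse GE 8x60K). The deposited intensity values are linear spot signals from which the authors' software, named in the submitters' processing notes as Agilent Feature Extraction 10.7.1.1, had removed background, with no normalization between arrays. The authors also deposited a table of other values, log2 signals centered per probe by GeneSpring with unstated settings, whose array difference equals that of the scanner signals plus 1.16 over 55679 probes. It was used as an alternative.

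Intensities were put on the log2 scale and lowered by the 75th percentile of the gene probes of that array (8.78 for Control and 7.63 for RFF4). Outlier spots (258 and 266) were dropped, saturated spots numbered 0, and repeated spots were averaged. A probe counted as well above background where 50% or more of its spots did, and a gene was read by its brightest probe. Of 55679 gene probes 27509 found a gene symbol (RefSeq, GRCm38.p6) through their accession. A gene well above background on at least 1 array was kept (14224 genes). Bounds compare the bright level with the higher of the dim level and the lowest level well above background on the dim array (-4.10 for RFF4).

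The genes and lists were chosen with earlier results of these data known. The text names every glycolysis gene, genes of other lists past 2-fold, the 3 brightest of each list of other cells (and *Rbpj*, *Heyl* and *Dtx1*), except where stated. The 11 alternatives were 3 other scalings, quantile normalization, cyclic loess, normexp with an offset of 50 on median signals, the authors' table, the mean of all probes, 2 other filters and outlier spots kept. Promoter letters came from RefSeq tables. Software was limma 3.58.1 in R 4.3.3, and numpy 2.4.6, matplotlib 3.10.9 and pandas 2.3.3 in Python 3.11.15, and the steps were tested on simulated data. That simulation changed bright genes alone, by more than 2-fold, so it does not cover dim genes or the smaller differences of most glycolysis genes. The files hold no probe sequences, so cross-hybridization with related genes and pseudogenes was not analysed here. The results of some genes are not given.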

Additional observations from a re-analysis of the deposited data

How the results depend on the processing

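The median difference of the glycolysis genes, 0.33, was 0.16 with median scaling, 0.19 with normexp, 0.076 with quantile normalization and -0.79 on the spike-in scale, and lay between 0.24 (cyclic loess) and 0.40 in the other 7 alternatives. The 1 gene more than 2-fold lower became 12 with the spike-in controls and 3 with no filter and no bound. The 2 genes more than 2-fold higher became 1 with median scaling and 0 with normexp and with the spike-in controls. The 4 genes lower past 3 technical SDs became 7 with median scaling and 32 with the spike-in controls, and the 14 higher became 5, 6, 5 and 0 with median scaling, quantile normalization, normexp and the spike-in controls. Of 32 genes, 29 kept their sign in every alternative that gave them a value, other than the spike-in controls. *Pfkfb2* had none with normexp or when both arrays had to be well above background. The exceptions were *Gapdh* (-0.08 with quantile normalization), *Eno3* (0.03 with cyclic loess) and *Pdha1* (-0.12 with median scaling and -0.19 with normexp). Over all genes, 5.21% were more than 2-fold lower and 12.1% higher, against 56.9% and 1.39% with the spike-in controls and 4.84% and 29.8% with no filter and no bound. The cause of these shifts was not tested. No paired analysis was possible because each genotype has 1 array, and no replicate could be left out. Signal over background limits the dim genes *Hk3*, *Eno2*, *Pfkfb2*, *Pklr* and *Pdk4*.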
